A study of Rattus norvegicus with 24 samples.

Results

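Serpins are a superfamily of proteins most of whose members trap a protease: the protease cuts an exposed loop, the serpin folds over, and both stay joined. Clade A members are largely secreted plasma proteins made by the liver, clade B members lack a classical secretion signal and act mostly inside cells, and a few members inhibit nothing and serve as hormone carriers or as chaperones. In the lung the family is best known for alpha-1-antitrypsin (Serpina1), which holds neutrophil elastase in check.

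The serpins described here are those on probes whose symbol, without the suffixes _PREDICTED or _MAPPED, is SERPIN followed by a clade letter from A to I and a number, leaving out Serpinb1a and Serping1. They were 33 genes on 36 probes, of 21684 symbols on 21792 probes. By clade, 12 genes were in A, 13 in B, 1 each in C, D, E and H, and 2 each in F and I. Serpinb6b, Serpinc1 and Serpinf2 had 2 probes each, with no other gene having more than 1. In every test each probe was set against its own level in the other group and never against another probe. This is because brightness differs between probes for reasons other than transcript level. Brightness did serve to choose probes and genes of the lists, and bright probes weigh most in the sums over lists.

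RNA was measured on Illumina rat expression arrays in lung and in blood of 12 male CDF Fisher 344 rats, labelled 3 months old without saying at which point. The 4 groups of 6 arrays were lung of rats that had inhaled crystalline silica, a respirable mineral dust, at 15 mg/m3 for 6 hours a day on 5 days, lung of rats given filtered air on the same schedule, blood of those silica rats and blood of those air rats. All rats were killed 32 weeks after the exposure ended, and blood RNA had been depleted of globin transcripts. Each rat gave 1 array per tissue. Lung arrays detected 11013 to 11733 probes each and blood arrays 7498 to 8469, with detected meaning a detection p-value under 0.05 against the array's negative controls. The number of arrays limits the precision. Of 9 markers of alveolar and airway epithelium, all were tested in lung and 7, the surfactant proteins among them, were undetected on every blood array. Blood of air rat 2, air rat 6 and silica rat 6 lay apart from the other 9 on the first principal component, so blood values were also computed without these 3.

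Promoter sequence was shown for the serpins past the threshold in lung for which a RefSeq entry of assembly GRCr8 was at hand: Serpine2 and Serpina3n, higher after silica, and Serpinb10 and Serpinb6a, lower after silica. Of the 33 genes, 27 had an entry, and 4 of the 6 genes past the threshold did. Each run below is the 250 bases before the start, 5′ to 3′ on the gene's strand, and capitals mark matches to 6 motifs on either strand, whose letters follow with their counts; GC boxes in Serpine2 overlap each other.
Serpine2, chr9:88637203-88637452, minus strand: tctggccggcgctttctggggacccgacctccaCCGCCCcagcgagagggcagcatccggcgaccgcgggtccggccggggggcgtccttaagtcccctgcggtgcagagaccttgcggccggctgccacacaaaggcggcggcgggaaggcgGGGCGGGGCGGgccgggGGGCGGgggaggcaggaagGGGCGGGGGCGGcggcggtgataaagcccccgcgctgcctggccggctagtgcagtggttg
Serpina3n, chr6:129088142-129088391, plus strand: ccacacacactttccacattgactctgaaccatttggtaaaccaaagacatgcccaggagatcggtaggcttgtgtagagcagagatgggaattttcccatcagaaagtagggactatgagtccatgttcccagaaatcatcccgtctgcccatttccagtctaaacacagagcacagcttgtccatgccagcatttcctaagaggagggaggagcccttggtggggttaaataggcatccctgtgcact
Serpinb10, chr13:24067803-24068052, plus strand: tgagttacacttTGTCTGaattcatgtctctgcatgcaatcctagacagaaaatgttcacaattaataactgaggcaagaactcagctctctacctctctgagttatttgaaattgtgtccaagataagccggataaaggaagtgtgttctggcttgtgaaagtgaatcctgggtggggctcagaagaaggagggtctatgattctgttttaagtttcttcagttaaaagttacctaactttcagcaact
Serpinb6a, start 1, chr17:31076561-31076810, plus strand: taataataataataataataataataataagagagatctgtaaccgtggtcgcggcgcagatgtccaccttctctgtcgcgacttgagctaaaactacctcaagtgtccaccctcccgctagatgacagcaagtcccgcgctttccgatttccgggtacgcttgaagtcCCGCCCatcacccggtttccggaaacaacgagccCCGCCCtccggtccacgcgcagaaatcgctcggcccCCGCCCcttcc
Serpinb6a, start 2, chr17:31176005-31176254, plus strand: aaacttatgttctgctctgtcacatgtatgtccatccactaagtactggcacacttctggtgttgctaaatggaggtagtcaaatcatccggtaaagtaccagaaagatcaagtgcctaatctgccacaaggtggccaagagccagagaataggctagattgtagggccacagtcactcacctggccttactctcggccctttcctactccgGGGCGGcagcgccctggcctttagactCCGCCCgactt

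The Serpine2 stretch was 76.8% G and C and held 6 GC boxes, from 217 to 55 bases before the start. The Serpina3n stretch was 49.2% G and C and held no match to any of the 6 motifs. The Serpinb10 stretch was 39.6% G and C and held a Smad box at 238 bases and no match to the other motifs. Its start is that of the promoter entry. The RefSeq gene table begins Serpinb10 further upstream, at 24067971, so the end of this stretch lies inside the gene. For Serpinb6a the stretches were 54.4% and 51.6% G and C, with 3 and 2 GC boxes. The median over all 33469 promoters of this length was 51.2%. A GC box (GGGCGG) stood in 30.5% of them. The CCAAT box, searched as those letters, stood in 34%. The Smad box (CAGACA) stood in 17.2% and a TATA box (TATAAA) in 12.9%. An AP-1 site (TGANTCA) was found in 6.34% and an E-box (CACGTG) in 5.59%. A match is a stretch of letters, and no binding was measured.

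In lung 12 of the 36 serpin probes were detected on all 12 arrays, 10 on some and 14 on none. In blood 8 were detected on all 12 arrays, 11 on some and 17 on none. Serpine2, Serpind1 (heparin cofactor II, a thrombin inhibitor) and Serpinb8 were detected on every lung array and on no blood array. Serpina1 was detected on every lung array and on 1 blood array, and Serpina10 on every lung array and 2 blood arrays. Serpinb11 went the other way, with all 12 blood arrays and 2 lung arrays. The probes detected on no array of either tissue, 11 in all, were those of Serpina3m, Serpina5 (the protein C inhibitor), Serpina7 (the thyroxine carrier), Serpina9, Serpina12, Serpinb7, Serpinb9e, Serpinb12, Serpinb13, Serpini1 (neuroserpin) and 1 of the probes of Serpinc1 (antithrombin). For the remaining untested probes the number of detecting arrays stayed small. Serpina4 (kallistatin) was seen on 3 lung and 5 blood arrays, Serpinb2 (plasminogen activator inhibitor 2) on 0 lung and 5 blood arrays, and Serpini2 on 0 and 5. Serpinb3 was seen on 4 lung and 3 blood arrays, Serpinb5 (maspin) on 3 lung and 4 blood arrays, and Serpina11 on 3 lung and 0 blood arrays. The Serpinf2 probes (alpha-2-antiplasmin) were seen on 3 lung and 5 blood arrays and on 0 lung and 2 blood arrays, and the second Serpinc1 probe on 2 lung and 0 blood arrays. The rows of Serpina6 and Serpina11 are means over more than 1 probe, as their non-whole bead numbers show, and the detection p-value of such rows does not follow their signal.

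**Figure D1:**
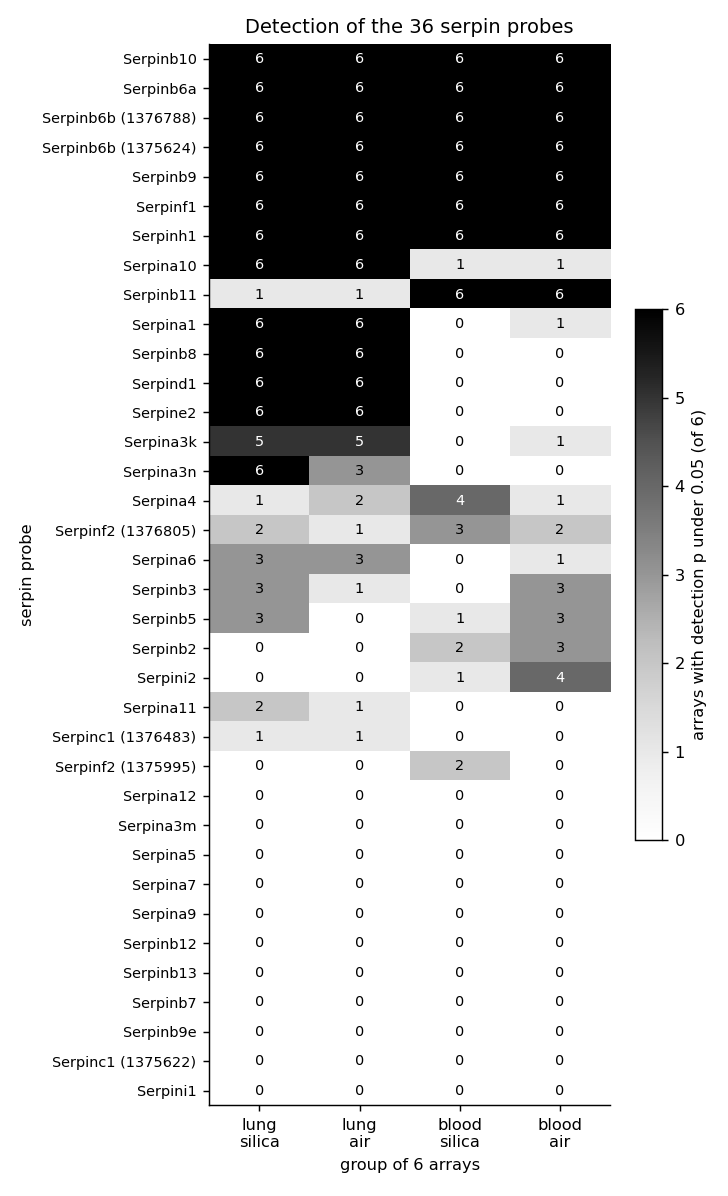
Number of arrays, of 6 per group, on which each of the 36 serpin probes (rows) had a detection p-value under 0.05, by group (columns); digits and shade both give the number. Serpine2, Serpind1 and Serpinb8 have 6 in both lung groups and 0 in both blood groups, while Serpinb11 has 1 in each lung group and 6 in each blood group.

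The first comparison asked which serpins differed in lung long after silica. Serpine2 rose most, by 1.88-fold, with smaller rises of Serpina10, Serpinb8 and, just inside the threshold, Serpina3n. Serpinb10 fell most, to a level 1.70-fold lower, and Serpinb6a was 1.17-fold lower. Of 36 probes, 15 (14 genes) were bright enough to be tested, having a detection p-value under 0.05 on 6 or more lung arrays, and 6 passed limma's adjusted p of 0.05, 4 upward and 2 downward; 3 passed without silica replicate 3 or 5. Of the 4 upward calls, that of Serpina3n met the detection filter through the silica lungs. With no filter it did not pass (limma adjusted p = 0.0854), and 3 serpin probes passed upward and 2 downward. Among all 11285 probes tested in lung, 16.7% passed in either direction, 7.97% upward and 8.74% downward. The median log2 fold change was 0.0037 over the tested serpin probes and -0.02 over all tested probes, and the median absolute one 0.24 and 0.11. Levels below are log2 normalised signals, ± beside a fold change is its standard error, and ± beside a level is the SD of 6 rats.

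Serpine2, protease nexin-1, inhibits thrombin and urokinase at cell surfaces. Its level (probe ILMN_1370763) had a lowest, median and highest value of 6.94, 7.37 and 7.94 in silica lungs, against 6.13, 6.55 and 6.83 in air lungs. The groups did not overlap, with silica rat 3 the highest and silica rat 6 the lowest of its group. The log2 fold change was 0.91 ± 0.15 (adjusted p = 0.00112, higher in 6 of 6 silica rats than in any air rat). Before normalisation its raw signal ran from 156.2 to 311.0 in silica lungs and from 113.7 to 150.3 in air lungs. Serpine2 and Serpinb10 were the 2 of 15 tested serpin probes whose lung groups did not overlap, beside 8.11% of all tested probes.

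Of 9 genes of plasminogen activation and fibrinolysis tested, 1 rose and 1 fell, beside 7.97% of all tested probes upward and 8.74% downward. Cpb2, a carboxypeptidase that protects fibrin from breakdown, rose 1.62-fold (0.70 ± 0.10, adjusted p = 0.000478). Vtn, vitronectin, an adhesive protein of plasma and matrix, was 1.39-fold lower (-0.48 ± 0.08, adjusted p = 0.000974). Over these 9 genes the median log2 fold change was -0.13. Of 12 coagulation factors and anticoagulants tested, F3 (tissue factor, which starts clotting) rose 1.88-fold (0.91 ± 0.14, adjusted p = 0.000482), Thbd (thrombomodulin, an endothelial anticoagulant) was 1.26-fold lower (-0.33 ± 0.09, adjusted p = 0.0205), and 10 did not pass. The call of Thbd ended without air replicate 3 (0.0509), with the replicate number as a block (0.0552) and with median centring (0.0831).

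Serpina10, which together with protein Z inhibits coagulation factor Xa, rose 1.29-fold. Its level (ILMN_1354651) was 6.38, 6.54 and 6.76 as lowest, median and highest in silica lungs, against 5.85, 6.17 and 6.46 in air lungs, and 4 of 6 silica rats lay above the highest air rat. The log2 fold change was 0.36 ± 0.10 (adjusted p = 0.0165). Serpind1, the heparin-dependent thrombin inhibitor of plasma, averaged 6.12 ± 0.18 in silica lungs and 6.36 ± 0.20 in air lungs, a log2 difference of -0.24 ± 0.10 that did not pass (adjusted p = 0.133); it passed without air replicate 1 (0.0414).

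Serpina3n, a secreted relative of antichymotrypsin that in the mouse inhibits granzyme B and leukocyte elastase, lay just inside the threshold. Its level (ILMN_1372782) was 4.87, 5.09 and 5.41 as lowest, median and highest in silica lungs, against 4.34, 4.71 and 5.06 in air lungs, with 3 silica rats above all air rats. The log2 fold change was 0.36 ± 0.12 (adjusted p = 0.046). The probe was dim, detected in 6 of 6 silica lungs and 3 of 6 air lungs, so that it met the detection filter through the silica lungs. Its call ended with no filter (0.0854) and without silica replicate 1, 3, 4 or 5 or air replicate 1, 2, 4 or 6 (0.0594 to 0.109). Serpina1 averaged 7.37 ± 0.31 in silica lungs and 7.62 ± 0.48 in air lungs, and did not pass (-0.25 ± 0.20, adjusted p = 0.452). Serpina3k, listed as Serpina3c in RefSeq, varied most between rats of a group, at 5.39 ± 0.78 in silica lungs and 5.85 ± 0.77 in air lungs (-0.46 ± 0.37, adjusted p = 0.453). Serpina6, the corticosteroid carrier, averaged 4.61 ± 0.12 in silica lungs and 4.61 ± 0.11 in air lungs. The 95% interval of its log2 fold change ran from -0.15 to 0.16, and it entered the test on 6 lung arrays whose detection p-values do not follow the signal. Apart from Serpina7, the clade A genes lie together in the RefSeq gene order, with 11 of them in a run of 18 protein-coding genes that Serpina10 opens and Serpina3n closes.

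**Figure D2:**
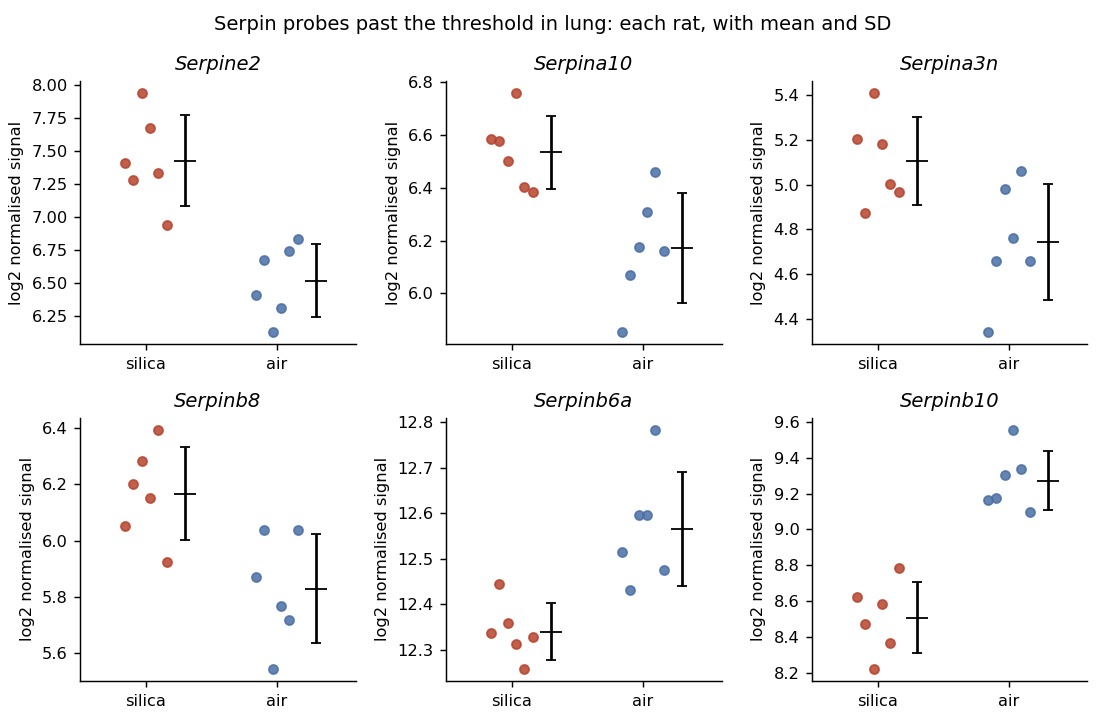
Log2 normalised signal of the 6 serpin probes past the threshold in lung, each point a rat (6 silica, 6 air), with the mean and SD to the right of each group; the vertical axes differ and do not start at 0. Serpine2 and Serpinb10 show no overlap between silica and air, and in Serpinb6a the highest silica rat, at 12.45, lies above the lowest air rat, at 12.43.

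Among the intracellular clade B serpins, Serpinb10 (bomapin, known from blood-forming cells in humans) fell and Serpinb8, which inhibits the protease furin in humans, rose. Serpinb10 (ILMN_1351430) stood at 8.22, 8.53 and 8.78 as lowest, median and highest in silica lungs, against 9.10, 9.24 and 9.56 in air lungs. The highest silica rat was below the lowest air rat. The log2 fold change was -0.76 ± 0.10 (adjusted p = 0.000168). Its raw signal ran from 370.6 to 449.2 in silica lungs and from 544.2 to 856.1 in air lungs. Serpinb8 (ILMN_1370479) was at 5.92, 6.18 and 6.39 in silica lungs, against 5.54, 5.82 and 6.04 in air lungs, 0.34 ± 0.10 on the log2 scale (adjusted p = 0.026). Of the silica rats 5 lay above the highest air rat. That call ended without silica replicate 3 or 5 or air replicate 3 or 5 (0.0568 to 0.0615) and with the replicate number as a block (0.069). Serpinb10 and Serpinb8, which moved in opposite directions, are next to each other in the RefSeq gene order.

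Serpinb6a, whose human counterpart inhibits cathepsin G, had 12.26, 12.33 and 12.45 as lowest, median and highest in silica lungs (ILMN_1349114), against 12.43, 12.56 and 12.78 in air lungs. Of the silica rats 5 lay below the lowest air rat, and the log2 fold change was -0.23 ± 0.07 (adjusted p = 0.0275). Its call ended without silica replicate 3, 4 or 5 or air replicate 3, 4 or 5 (0.0504 to 0.0579), with the replicate number as a block (0.089) and with median centring (0.139). Serpinb6b, which in the mouse inhibits granzyme A, did not pass on either probe: the log2 fold change was 0.13 ± 0.06 for ILMN_1376788, which averaged 10.49 ± 0.07 in silica lungs and 10.37 ± 0.09 in air lungs, and 0.08 ± 0.10 for ILMN_1375624. Serpinb9, an inhibitor of granzyme B, averaged 11.70 ± 0.11 in silica lungs and 11.76 ± 0.11 in air lungs (-0.05 ± 0.07). Serpinb6a, Serpinb9 and Serpinb6b lie within 9 neighbouring protein-coding genes. Whether a probe of a serpin also binds the RNA of a close relative was not tested.

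Lists of proteases were counted one by one, beside 7.97% of all tested probes upward and 8.74% downward, and no difference between lists was tested. None of 5 cytotoxic granule proteases tested passed: Prf1, perforin, averaged 10.99 ± 0.13 in silica lungs and 11.31 ± 0.34 in air lungs, and Gzma, granzyme A, 10.28 ± 0.10 in silica lungs and 10.58 ± 0.36 in air lungs. This rested on 1 array: without air replicate 6 both passed, lower after silica (-0.43, adjusted p = 0.00979 for Prf1, and -0.44, adjusted p = 0.00128 for Gzma). Of the neutrophil serine proteases, Prtn3 was tested and did not pass (-0.09 ± 0.09), and Ela2, Ctsg and Prssl1 were undetected on every lung array. Of 7 cysteine cathepsins 5 rose, with Ctsk at 2.02-fold (1.01 ± 0.22, adjusted p = 0.00498), Ctsw at 1.74-fold, Ctsh at 1.56-fold and Ctss at 1.45-fold. Of 6 mast cell proteases tested 5 rose, led by Mcpt10 at 2.36-fold (1.24 ± 0.16, adjusted p = 0.000168) and Cpa3 at 2.02-fold, with the tryptases Tpsb2 at 1.90-fold and Tpsab1 at 1.80-fold. Cpa3 was detected in 3 of 6 air lungs and each tryptase in 2 of 6, so these folds were set against levels near background; all 3 also passed with no detection filter (adjusted p = 0.00123 to 0.0217). The summed level of the 10 mast cell protease probes, on the linear scale, was 339.2 to 545.1 in silica lungs and 237.5 to 278.9 in air lungs. Of 6 epithelial serine proteases 2 rose, Hpn (hepsin) at 1.35-fold and Prss22, undetected in every air lung, at least 1.15-fold (adjusted p = 0.005). Prss22 met the detection filter through the silica lungs alone, and it passed with no filter too (0.00833). A fold given as "at least" sets the mean of the detected group against, for each undetected array, the higher of the probe's own level and the lowest detected level of any probe.

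Serpinh1, the chaperone that helps collagen fold in the endoplasmic reticulum, averaged 5.27 ± 0.18 in silica lungs and 5.40 ± 0.30 in air lungs, a log2 difference of -0.12 ± 0.12 that did not pass (adjusted p = 0.571). Of its 19 collagen and folding partners 7 fell and none rose, with a median of -0.17, beside 8.74% of all tested probes downward and 7.97% upward. The largest falls were those of Leprel1, a prolyl hydroxylase (1.31-fold lower, -0.39 ± 0.09), and of Col5a1 (1.29-fold lower), Sparc (1.29-fold lower) and Col4a1 (1.27-fold lower). Serpinf1, pigment epithelium-derived factor, an inhibitor of vessel growth, averaged 7.42 ± 0.18 in silica lungs and 7.31 ± 0.11 in air lungs (0.12 ± 0.08, adjusted p = 0.393). Among 16 protease inhibitors of other families 2 rose and 3 fell. Slpi, an elastase inhibitor, rose 2.22-fold (1.15 ± 0.23, adjusted p = 0.00387), and A2m, alpha-2-macroglobulin, undetected in every air lung, rose at least 1.22-fold (adjusted p = 0.00145). A2m likewise met the filter through the silica lungs alone and passed with no filter (0.0027). Reck, a membrane inhibitor of matrix metalloproteinases, was 1.44-fold lower (-0.52 ± 0.06) and Wfdc1 was 1.31-fold lower.

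**Figure D3:**
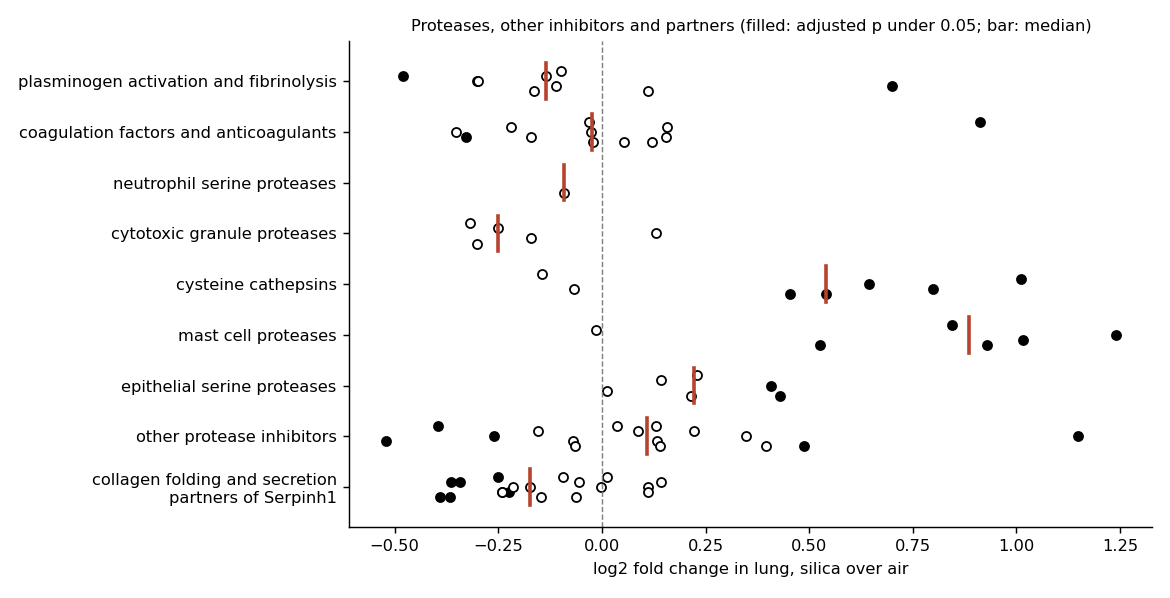
Log2 fold change in lung, silica over air, of each tested gene in 9 lists of proteases, other inhibitors and partners of the serpins; each point is a gene, filled where limma's adjusted p was under 0.05, and the bar is the list's median. The filled points of the cathepsin and mast cell protease lists all lie above 0, and those of the collagen partners all lie below 0.

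Markers of several cell types passed in the same lungs, where 7.97% of all tested probes passed upward and 8.74% downward. No list was tested against these shares, and lists with 1 call are not read as changed. Macrophage markers summed to 14597 to 20291 in silica lungs and 8771 to 14080 in air lungs, with 3 of 5 higher. Neutrophil markers summed to 2503 to 5039 in silica lungs and 1033 to 1987 in air lungs, with 3 of 5 tested higher. The S100a9 probe was undetected on every lung array and also on every blood array, so nothing is read from it. T and B cell markers summed to 1695 to 2987 in silica lungs and 1155 to 1766 in air lungs, with 2 of 7 higher. Lower after silica were 4 of 5 endothelial markers (9102 to 13340 in silica lungs, 11995 to 14781 in air lungs), 4 of 5 platelet markers (2330 to 2927 in silica lungs, 2398 to 3423 in air lungs), 3 of 6 erythroid markers, 1 of 2 tested mesothelial markers and 1 of 5 markers of fibroblasts and smooth muscle. Epithelial markers split, 2 higher and 3 lower of 9. Of 6 hepatocyte markers tested, Fgg was higher and 5 did not pass. Heart muscle markers summed to 85.8 to 3277 in silica lungs and 98.1 to 4470 in air lungs, a wide spread within each group. The calls of Cxcr2 and Csf3r (neutrophil), Cd3d (T cell), Ppbp, Gp1bb and Gp9 (platelet), Alas2 and Bpgm (erythroid), Sftpa1 and Aqp5 (epithelium) and Krt19 (mesothelium) ended in some fits without 1 array. The part of any of these in the serpin results was not tested. In tissue RNA, fewer cells of a type and less RNA per cell cannot be told apart.

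The second comparison asked whether the same exposure could be seen in the serpins of blood. No serpin probe passed in blood, of 8 tested (7 genes), and among all 7864 probes tested 4 did, 0.0509%, all upward. At an unadjusted p under 0.05 there was 1 serpin probe of 8, where 8.8% of all tested probes had such a p. That probe was Serpinb6a, at 11.10, 11.18 and 11.42 as lowest, median and highest in silica blood, against 11.17, 11.58 and 11.90 in air blood (-0.34 ± 0.12, adjusted p = 0.334 in limma). Each of the 6 silica rats lay below the median of the air rats, and 3 lay below the lowest. Serpinb11, tested in blood alone, averaged 8.08 ± 0.14 in silica blood and 8.28 ± 0.24 in air blood (-0.21 ± 0.11, adjusted p = 0.653).

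Of the serpins called in lung, Serpinb10 and Serpinb6a could be tested in blood, and neither passed there. Serpinb10 averaged 5.82 ± 0.27 in silica blood and 5.92 ± 0.14 in air blood, with a 95% interval of the log2 fold change from -0.35 to 0.15. The other blood serpins had log2 fold changes of -0.16 ± 0.14 and -0.13 ± 0.12 (Serpinb6b), -0.05 ± 0.12 (Serpinf1), 0.14 ± 0.16 (Serpinb9) and 0.18 ± 0.16 (Serpinh1). Without the 3 blood arrays that lay apart, no serpin passed either. In the lists of partners, 1 gene passed in blood, the inhibitor Slpi (0.72 ± 0.12, adjusted p = 0.0463). Its call ended in 9 of the 12 fits without 1 array (0.0894 to 0.174), which left out silica replicate 1, 2, 3 or 5 or air replicate 1, 3, 4, 5 or 6. It also ended with the replicate number as a block (0.0545), with median centring (0.527) and with no filter (0.145). Controls inferred from all rows (0.115) and an offset of 1 (0.118) ended it too. Over all alternative fits the Slpi call ended in 14 and stayed in 8.

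**Figure D4:**
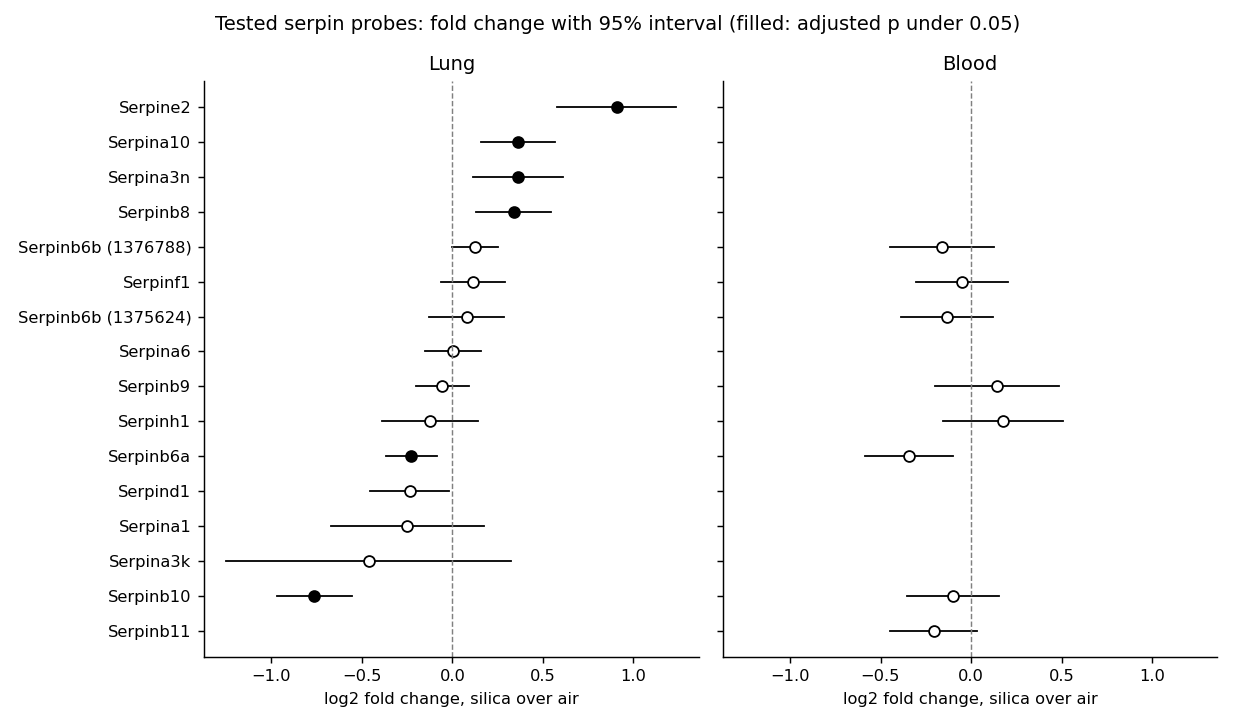
Log2 fold change, silica over air, of each tested serpin probe in lung (left) and blood (right), with its 95% interval; filled points passed limma's adjusted p of 0.05, and a probe with no point in a tissue was not tested there. In lung, 4 filled points lie right of 0 and 2 left of it, and no point is filled in blood.

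Whether silica acted differently in lung and blood was tested by subtracting each rat's blood value from its lung value, for the 7 serpin probes tested in both tissues. None passed, and of all 7594 probes 200 did (2.63%). At an unadjusted p under 0.05 there was 1 serpin probe, that of Serpinb10, beside 14.9% of all probes. Its lung minus blood value was 0.44, 0.75 and 1.48 as lowest, median and highest in silica rats, against 1.09, 1.53 and 1.94 in air rats, a difference of -0.67 ± 0.18 (adjusted p = 0.065). It passed without silica replicate 6 (0.0127) or air replicate 6 (0.0495), and without the 3 rats whose blood arrays lay apart (-0.88, adjusted p = 0.0172). It also passed when the arrays were normalised within each tissue (-0.66, adjusted p = 0.0348), with no background correction (0.0222) and with controls inferred from all rows (0.0132). It passed as well (0.0253) in a fit that left the lung and blood arrays of a rat unpaired, as if from different animals. Serpinb6a, lower after silica in lung, had a difference of -0.03 ± 0.15 (adjusted p = 0.95). Whether silica acted differently on Serpinb10 in the tissues thus depended on the setting.

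**Figure D5:**
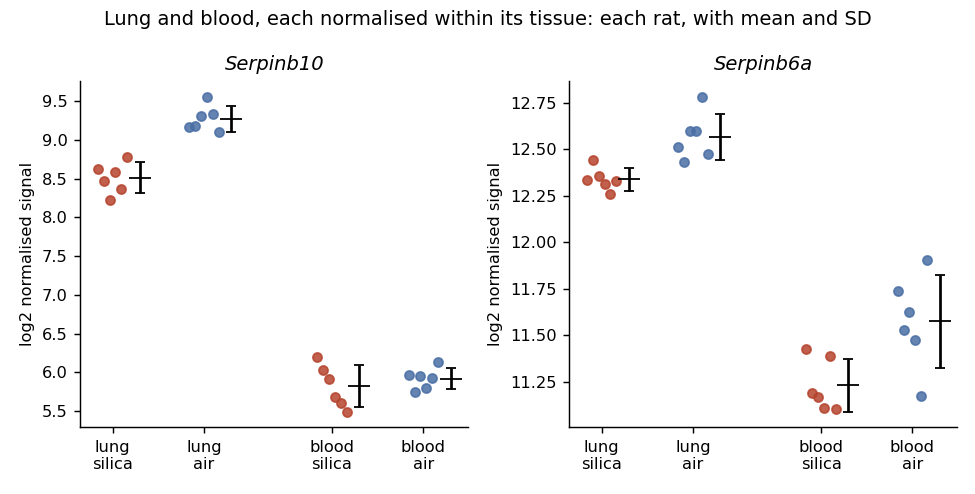
Log2 normalised signal of Serpinb10 and Serpinb6a in lung and in blood, each tissue normalised alone, each point a rat (6 per group), with the mean and SD to the right of each group; the axes do not start at 0. Serpinb10 separates silica from air in lung and overlaps in blood. In Serpinb6a the groups overlap in both tissues, with 5 of 6 silica rats below the lowest air rat in lung and 3 of 6 in blood, where it did not pass.

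The last comparison set lung against blood in the 6 air rats, after normalising all 24 arrays together. In it, tissue cannot be told apart from any difference between the tissues in RNA isolation or hybridisation. Which arrays were hybridised together is not known, since the headers name no chip. Of 14 serpin probes tested, 7 were detected on all 6 air arrays of both tissues. All 7 passed, 3 higher in lung and 4 higher in blood, while 82.7% of all 10662 tested probes passed, 43.7% higher in lung and 38.9% higher in blood. The other 7 met the detection filter through the tissue in which they were bright, which largely set their direction, so no count is read from them. The direction of smaller differences depended on the scaling: with median centring in place of quantile normalisation the median over all probes was 1.06 instead of 0.08, and 7746 probes were higher in lung and 1777 lower, instead of 4662 and 4151. The values here are those of the quantile normalisation, and all serpins named in the next paragraph kept their direction with median centring apart from Serpinb6b probe ILMN_1375624.

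Among the 7 detected throughout, Serpinf1 averaged 6.43 ± 0.10 in air lungs and 8.86 ± 0.20 in air blood, 5.40-fold higher in blood. Log2 fold changes here are lung over blood. Both Serpinb6b probes were higher in blood (-1.42 ± 0.10 and -0.95 ± 0.10), and so was Serpinh1 (-0.999 ± 0.132), whose call ended with median centring (-0.09, adjusted p = 0.445). Higher in lung were Serpinb10 (1.50 ± 0.11), Serpinb9 (1.15 ± 0.11) and Serpinb6a (0.59 ± 0.13). Serpinb10 averaged 8.35 ± 0.17 in air lungs and 6.84 ± 0.15 in air blood, so it was higher in air lung than in air blood and fell in lung after silica. For 4 serpins detected on only 1 air array of the other tissue, levels are given without a fold. Serpinb11 averaged 4.53 ± 0.13 in air lungs, detected in 1 of 6, and 9.15 ± 0.22 in air blood, detected in 6 of 6. Serpina1 averaged 6.72 ± 0.44 in air lungs, detected in 6 of 6, and 5.11 ± 0.28 in air blood, detected in 1 of 6. Serpina10 averaged 5.55 ± 0.14 in air lungs, detected in 6 of 6, and 4.77 ± 0.40 in air blood, detected in 1 of 6. Serpina3k averaged 5.36 ± 0.49 in air lungs, detected in 5 of 6, and 4.69 ± 0.37 in air blood, detected in 1 of 6. Against blood arrays on which they were undetected, Serpine2 was at least 1.39-fold, Serpind1 at least 1.28-fold and Serpinb8 at least 1.003-fold higher in lung.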

How the data were processed

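Probes were measured on 24 arrays, 1 per rat and tissue. Per the file headers, the authors deposited for each tissue an average signal per probe, an intensity on a linear scale with no normalisation, beside which stand a detection p-value, a standard error over beads and the number of beads. The authors also deposited normalised values, which were on a log2 scale for blood and were a score of unknown transform, close to log2 at high signal, for lung. BeadStudio, limma and lumi are named in the submitters' processing notes, without versions. The labels of the lung samples carry the extraction text of blood, so how lung RNA was isolated is not known from them.

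From the intensities, background was corrected in R 4.3.3 with limma 3.58.1 (normal-exponential model, offset 16), followed by quantile normalisation and log2. The negative controls were inferred from the detection p-values of rows with whole bead numbers: 683 of 21792 rows had non-whole numbers, and with them limma's default put the SD of the background at 83.1 to 136 (lung) or 87.5 to 160 (blood), where without them it was 6.13 to 7.21 (lung) or 6.90 to 8.64 (blood). That choice was made after seeing the data, and the default is an alternative. Probes that 6 or more arrays of a tissue detected at p under 0.05 (of the 12 air arrays for lung against blood) were fitted by lmFit and eBayes, two-sided, and p-values were adjusted by Benjamini-Hochberg over all of them, with a threshold of 0.05. Lung and blood of a rat were paired by the rat number in the labels. The code of the fits was also run on simulated data drawn independently for each probe. Such data differ from these, and nothing is concluded from them here. No 2 arrays of a tissue held identical values.

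Members and lists were chosen with earlier results of these data known. One gene that the naming rule matched is not reported here. Every other serpin with a tested probe is named, those past the threshold with the range of each group, and from each list the up to 4 genes with the largest change past the threshold in lung, or else the 2 brightest. Markers are given as counts and sums. The tested probe with the highest mean stood for a gene of a list. Symbols were matched to a RefSeq gene table of assembly GRCr8 (34 probes by symbol, 2 by synonym), used for names and gene order. A planned display of protein sequence was not made.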

Additional observations from a re-analysis of the deposited data

Results flagged for a closer look

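In groups of 6, a rat far from the others was looked for in 46 groups of serpin values, and 2 groups had one, where chance gives about 1 in 20. Serpinb6b probe ILMN_1375624 was lowest in the lung of silica rat 5, at 5.76, with the nearest rat at 5.99. Serpinb9 was highest in the blood of air rat 2, at 10.07, with the nearest rat at 9.47; this array is 1 of the 3 blood arrays that lay apart. Neither probe passed in silica against air in either tissue.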

How the results depend on the processing

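The count of serpin probes past the threshold in lung was 6, and 4 to 5 under the other settings: 4 with the replicate block and with median centring, and 5 with no background correction, the authors' values, no filter, a detection p under 0.01, array weights, controls inferred from all rows or an offset of 1. Leaving out 1 rat gave 3 to 6. Serpine2, Serpinb10 and Serpina10 passed in every one of these fits. Serpina3n passed in 1 of the 8 other settings that tested it (adjusted p up to 0.133). No serpin called in lung changed sign. The size of the change of the dim Serpina3n probe depended on the setting, with a log2 fold change of 0.36 in the main fit. It was 0.19 with no background correction, 0.04 with controls inferred from all rows and 0.77 with an offset of 1. Replicate numbers of silica and air rats pair nothing by the labels: same-numbered lungs had deviations correlated from -0.24 to 0.19, 2 of 6 matching their own number best, and the block moved all calls in lung to 1478, against 1885. In blood the count was 0 in every fit, while the calls over all probes ran from 0 to 29 when 1 rat was left out. For lung minus blood the count was 0, and 0 to 1 without 1 rat. It was 1 (Serpinb10) with lung and blood of a rat left unpaired (adjusted p = 0.0253) and with no background correction (0.0222). It was also 1 when normalised within each tissue (0.0348), without the 3 rats whose blood arrays lay apart, and with controls from all rows (0.0132). For lung against blood the count was 14 of 14 tested, and 12 to 20 under the other settings. It was 12 of 14 with median centring, and 20 of 36 with no filter, 9 higher in lung and 11 in blood. Over all probes 8813 of 10662 passed in the main fit, 9523 of 10662 with median centring and 10219 of 21792 with no filter. Of the 14, 7 met the detection filter through the tissue in which they were bright, so these counts are not read as a result about serpins. With median centring, Serpinb6b probe ILMN_1375624 turned to 0.22. The causes of these changes were not tested. Blocking on the chip was not run, since the headers name none. Dim probes near background, Serpina3n and Serpina6 among them, limit the size of change that can be seen.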
